A study of Mus musculus with 4 samples.

Results

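The genes described are the 8 core and regulatory subunits of the m6A writer, the enzyme complex that places N6-methyladenosine (m6A) on messenger RNA: Mettl3, Mettl14, Wtap, Virma, Zc3h13, Rbm15, Rbm15b and Cbll1. They were chosen by name, and a site belonged to one of them when its position and strand lay inside the bounds of the gene as deposited. They are 8 of 11472 protein-coding genes with a listed site, and they held 880 of the 881997 different listed positions in the series. The samples were mouse retinal organoids, an eye-like tissue grown in culture, collected after 4 days of differentiation. The 4 libraries were 2 of the wild-type (WT) Rx:GFP line and 2 of a Rx:GFP line with a Mettl3 knockout (KO). Per the labels' protocols, both lines were differentiated in GMEM with knockout serum replacement and 0.1 µM AGN, and the knockout line also carried a doxycycline-inducible HA-METTL3. The treatment label reads "No" in all 4 samples. One knockout line was used, and the labels do not say whether the libraries of a group came from separate cultures, so the spread between them may be technical. Reads from the transgene, if any, and from the endogenous gene cannot be told apart in these lists.

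METTL3 is the catalytic subunit and METTL14 is its RNA-binding partner, and the pair forms the methyltransferase core. WTAP holds the core in nuclear speckles, VIRMA is a large scaffold that directs methylation towards the 3′ part of transcripts, and ZC3H13 helps keep the complex in the nucleus. RBM15 and RBM15B bind RNA and bring the complex to it, and CBLL1, also called HAKAI, is a further regulatory subunit. Writer transcripts can themselves carry m6A. The comparison asked how the listed sites, the transcript coverage and the adenosine conversion of the writer genes differed between WT and Mettl3 KO organoids.

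The assay was GLORI, in which glyoxal and nitrite deaminate unmodified adenosine so that it is read as G, while m6A stays A. The level of a site is the number of reads with A over the number with A or G, which is called its coverage. Each library had 1 deposited list of 215850 to 288516 sites, with a median coverage of 38 to 41 reads, and no listed site had a coverage under 15, under 5 unconverted reads or a level under 0.1. The lists do not separate a converted position from one with too few reads, since both are absent. Among marker lists, the 8 eye field and early neural genes held 229 and 283 sites in WT and 139 and 120 in KO. Within that list Rax had 20 and 35 sites against 0 and 0, Six6 had none in any library, and Sox1, with 34 and 34 against 41 and 30, overlapped. The 6 roof plate and midbrain genes held 4 and 5 sites in WT and 66 and 57 in KO. Of these, Mab21l2 had 1 and 2 sites against 30 and 19, and Wnt3a and En2 had none in any library. Sites in the 6 pluripotency genes numbered 41 and 44 against 19 and 15, the 3 neuronal genes held 17 and 22 against 21 and 20, and the 7 mesoderm and endoderm genes held 0 to 4 sites in any library. Summed gene coverage, in units of the median gene, over the 6 eye field genes with a value was 41.2 and 43.2 in WT and 16.7 and 15.2 in KO, of which Six3 made up 16.3 and 17.6 against 1.80 and 2.45, while Pax6 lay at 2.21 and 2.23 against 2.61 and 2.22. Over the 3 roof plate and midbrain genes with a value it was 1.65 and 1.31 against 5.21 and 5.55. Mab21l2 made up 0.413 and 0.331 of that sum in WT and 2.96 and 2.64 in KO. The part of these marker differences in the values below was not tested.

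Coordinates are those of the lists. The submitters' processing notes name mm10, but these positions did not match GRCm38 gene starts, so the build is not stated here and no sequence was read. Mettl3 (ENSMUSG00000022160) is listed on the minus strand of chromosome 14 from 52532298 to 52542585, and Mettl14 (ENSMUSG00000028114) on the minus strand of chromosome 3 from 123161946 to 123179757. Wtap (ENSMUSG00000060475) lies on the minus strand of chromosome 17 from 13185683 to 13213056, and Virma (ENSMUSG00000040720) on the plus strand of chromosome 4 from 11485958 to 11550684. Zc3h13 (ENSMUSG00000022000) lies on the plus strand of chromosome 14 from 75521813 to 75581866, and Rbm15 (ENSMUSG00000048109) on the minus strand of chromosome 3 from 107232737 to 107240989. Rbm15b (ENSMUSG00000074102) lies on the minus strand of chromosome 9 from 106758117 to 106764627, inside the same-strand bounds of Manf, so its reads cannot be told apart from that gene's. Cbll1 (ENSMUSG00000020659) lies on the minus strand of chromosome 12 from 31534828 to 31549615. The lists' intron mark was set for 100% of Mettl3 sites and 0% of Mettl14 and Rbm15b sites in every library, and was not used to place sites in exons or introns.

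Most writer-gene positions were listed in a single library. Of the 880 positions, 795 (90.3%) were in 1 list, 78 in 2, 7 in 3 and 0 in all 4. Over all protein-coding genes 92.0% of positions were in 1 list. The WT lists shared 32 writer positions, which is 17.1% of those in WT replicate 1 and 11.7% of those in WT replicate 2, against 12.4% and 9.83% over all protein-coding genes. The KO lists shared 16, which is 6.78% of those in KO replicate 1 and 5.80% of those in KO replicate 2, against 4.85% and 5.20%. Pairs across genotypes shared 9 to 17. Because no writer position was in all 4 lists, no test of a level between genotypes at a single site was possible.

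Writer transcripts carried fewer well-covered sites of high level in KO. Sites covered by 50 or more reads with a level of 0.3 or more numbered 18 and 26 in WT replicates 1 and 2 and 2 and 14 in KO replicates 1 and 2. The groups did not overlap, and KO replicate 1 was far lower than KO replicate 2. The means were 22 ± 5.66 in WT and 8 ± 8.49 in KO (SD, n = 2 each), a KO over WT ratio of 0.364. A two-sided exact permutation test gave p = 0.333, the smallest it can give with 2 against 2. Over all listed sites of the series the same count was 13243 and 19263 in WT and 6974 and 7599 in KO, a ratio of 0.448. Leaving out 1 library at a time moved the writer ratio between 0.0909, without KO replicate 2, and 0.636, without KO replicate 1.

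At a level of at least 0.5 the writer counts were 8 and 11 in WT against 0 and 1 in KO, a ratio of 0.0526, and over all sites the ratio was 0.274. The KO site was Cbll1 31537383 in KO replicate 2, at 0.906 with 53 reads. WT replicate 1 had a lower level there, 0.226 with 62 reads. Listed writer sites with 50 or more reads, at any level, numbered 61 and 108 in WT and 111 and 97 in KO, which overlap. The share of such sites with a level of at least 0.3 was 29.5% and 24.1% in WT against 1.80% and 14.4% in KO. Over all sites that share was 15% and 15.9% against 7.65% and 9.49%. Listed writer sites of any level numbered 187 and 273 in WT and 236 and 276 in KO (230 ± 60.8 and 256 ± 28.3, SD, n = 2 each, ratio 1.11, two-sided exact permutation p = 0.667), so the 2 groups overlapped. Without WT replicate 1 this ratio was 0.938. Per 10000 listed sites of the library, the writer genes held 8.23 and 9.46 in WT and 10.2 and 12.8 in KO, which do not overlap (two-sided exact permutation p = 0.333). Divided instead by the summed gene coverage of the 8 genes, the KO over WT ratio was 0.843, so the direction depends on the scaling.

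**Figure D1:**
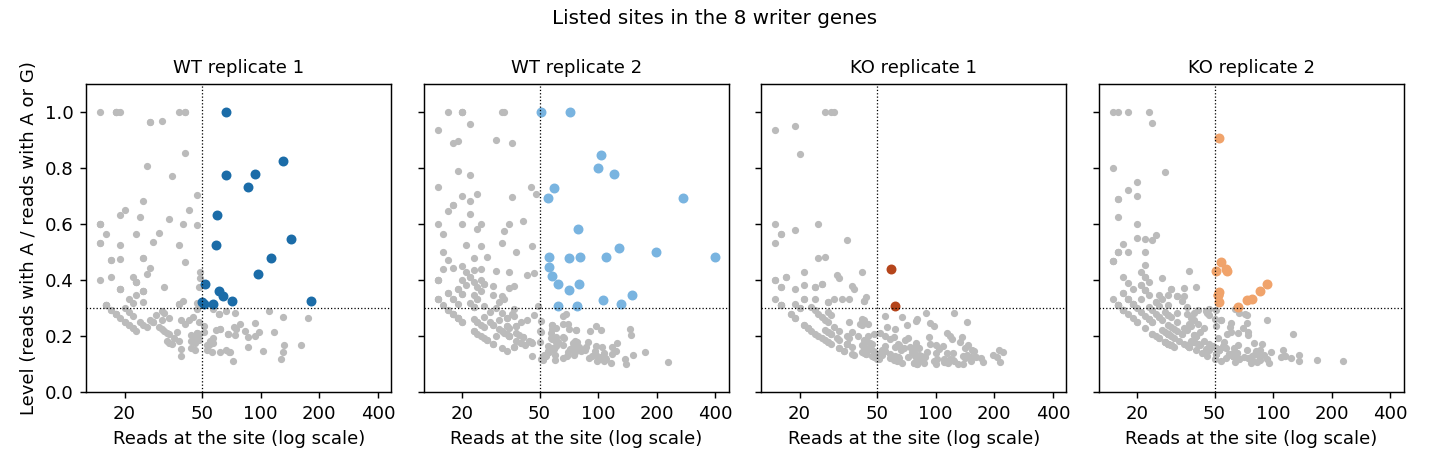
Level of every listed writer-gene site (reads with A over reads with A or G, y axis) against its coverage in reads (log x axis), 1 panel per library. Coloured points have 50 or more reads and a level of 0.3 or more (dotted lines) and number 18 and 26 in WT replicates 1 and 2 and 2 and 14 in KO replicates 1 and 2, while grey points are all other listed sites.

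Recurrence of these high sites was counted in the other library of the same genotype. Of the 18 in WT replicate 1, 11 were listed in WT replicate 2, and of the 26 in WT replicate 2, 13 were listed in WT replicate 1. Of the 14 in KO replicate 2, 1 was listed in KO replicate 1, a share of 7.14% (Wilson 95% interval 1.27% to 31.5%), and 10 were in no other list. Neither of the 2 in KO replicate 1 was in KO replicate 2. The difference in recurrence was not tested, and recurrence of high sites was not counted over all genes. For listed sites of any level over all protein-coding genes, the WT lists shared 12.4% and 9.83% and the KO lists 4.85% and 5.20%.

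By gene, both KO libraries had fewer such high sites than both WT libraries in 3 of the 8 writer genes, and in 28.2% of the 7914 protein-coding genes with one. These 3 were Wtap, with 1 and 2 sites in WT and none in KO, Zc3h13, with 2 and 4 against none, and Rbm15b, with 7 and 9 against 1 and 6. No writer gene had more in both KO libraries, against 2.89% of genes. Virma had 2 and 4 high sites in WT and 0 and 2 in KO, Rbm15 had 6 and 2 against 0 and 4, and Cbll1 had 0 and 4 against 0 and 2. Those 3 genes overlapped between the groups. The core pair held almost none: Mettl14 had 1 such site, in WT replicate 2, and Mettl3 had 1, in KO replicate 1 at a level of 0.306. The adaptors Rbm15 and Rbm15b held 13 of the 18 high sites of WT replicate 1 and 11 of the 26 of WT replicate 2.

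The 32 positions listed in both WT libraries were spread over all 8 genes, with 10 in Rbm15b, 6 in Rbm15, 4 each in Zc3h13 and Cbll1, 3 in Wtap, 2 each in Mettl14 and Virma and 1 in Mettl3. Their mean WT level ran from 0.130 to 1.00 with a median of 0.412, and 12 of them had a mean of at least 0.5. Replicates differed at many of them: 17 of the 32 differed by more than 0.1 between the WT libraries, and at 7 the Wilson 95% intervals of the 2 libraries did not overlap. These intervals cover counting error only, since reads may be PCR copies.

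Of the 32, 29 were in neither KO list (90.6%, Wilson 95% interval 75.8% to 96.8%), and the same held for 84.0% of 23710 shared WT positions in other protein-coding genes. With a coverage of at least 20 in both WT libraries it was 25 of 28 (89.3%, 72.8% to 96.3%), against 83.5% elsewhere. The writer shares were thus near the background. Scaled by gene coverage, the expected coverage of the 32 positions was 22.4 to 324 reads in the KO libraries. At exactly that coverage and the mean WT level, all 32 would have reached 15 reads and 5 unconverted reads in both KO libraries. With fewer reads than expected, some could have stayed unlisted at an unchanged level. Even the WT lists shared only 17.1% and 11.7% of their writer positions. The p-value of the lists, at most 0.004, was not part of this expectation. Among the 24 positions for which 50 or more reads were expected in each KO library, 22 (91.7%) were in neither list, against 81.1% elsewhere. With a WT level of 0.3 or more as well, it was 8 of 10 (80.0%), against 85.2% elsewhere. The same scaling between the WT libraries gave an observed over expected coverage of 0.440 to 3.86 with a median of 0.964. That range covers only positions listed in both WT libraries, so it leaves out those that fell under the minimums. It can therefore understate the error for a position that a list lacks. The 3 positions that were listed in KO were all in KO replicate 2, so without that library the share was 100% of 28.

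**Figure D2:**
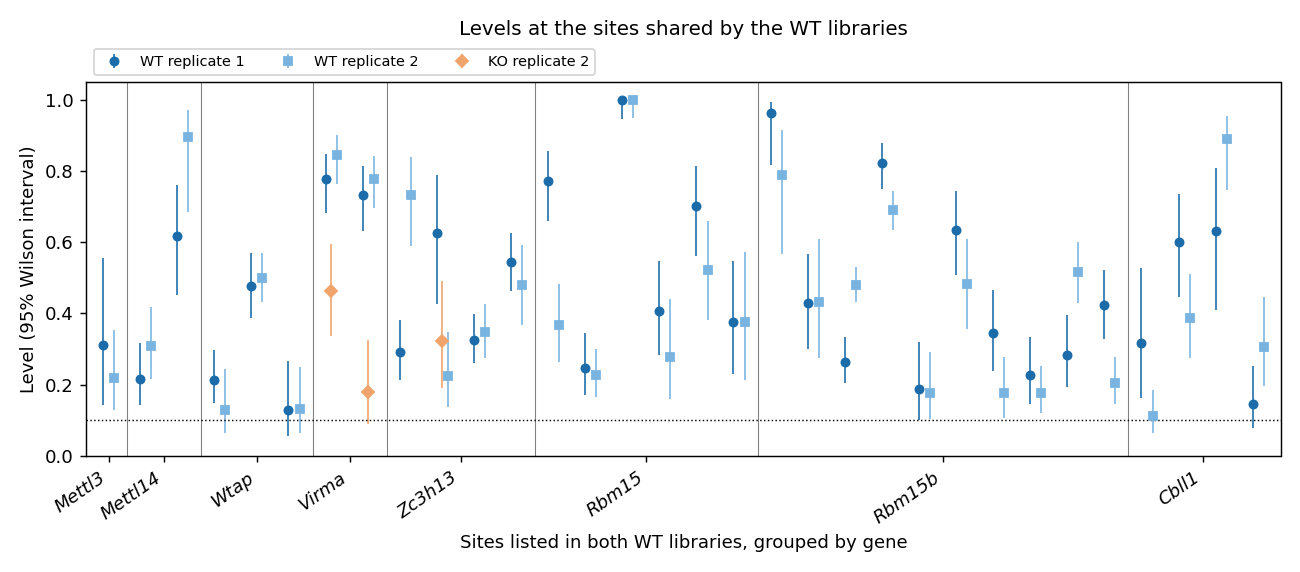
Level with its Wilson 95% interval (y axis) at each of the 32 positions listed in both WT libraries, grouped by gene along the x axis, with KO levels where a KO library listed the position. The 3 diamonds, 2 in Virma and 1 in Zc3h13, are the KO entries, all from KO replicate 2, and the dotted line marks the lowest listed level of 0.1.

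Among the core subunits, the Mettl14 position 123162142 on chromosome 3, 196 bases from the gene's 3′ end, had levels of 0.217 and 0.308 at 83 and 78 reads in WT. It was in neither KO list, where 82.7 and 68.4 reads were expected. A second Mettl14 position, 123162914, had 0.618 and 0.895 at only 34 and 19 reads. Mettl3 shared the single position 52534579, at 0.313 and 0.220 with 16 and 50 reads. In both WT lists the gene value attached to it was one that spanned the chromosome. So the core pair had 3 shared WT positions, and neither KO library listed any of them.

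Of the regulatory subunits, Wtap had its highest shared level at 13186389 on chromosome 17, 706 bases from the 3′ end, with 0.478 and 0.5 at 113 and 198 reads. Expected KO coverage there was 236 and 324 reads, and neither KO list held it. The 324 rests on a gene value in KO replicate 2 that was attached to only 2 sites. Median coverage of the listed Wtap sites was 34 and 33.5 reads in WT and 26 and 23.5 in KO. The other 2 shared Wtap positions lay at 0.128 to 0.214. In Zc3h13 the position 75581791 on chromosome 14, 75 bases from the 3′ end, had 0.545 and 0.479 at 143 and 71 reads, and its neighbour 75581730 had 0.326 and 0.347 at 181 and 150 reads. Both were missing from the KO lists, with at least 94.3 reads expected. Position 75559173 differed between the WT libraries, at 0.291 and 0.733.

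Virma was the gene in which both shared WT positions stayed listed in a KO library, at lower levels. At 11519090 on chromosome 4 the levels were 0.777 and 0.845 at 94 and 103 reads in WT and 0.463 at 54 reads in KO replicate 2. At 11527085 they were 0.733 and 0.777 at 86 and 121 reads in WT and 0.179 at 39 reads in KO replicate 2. The Wilson intervals of KO replicate 2 lay below those of both WT libraries at both positions (0.337 to 0.594 and 0.0898 to 0.327). KO replicate 1 listed neither, with 111 and 115 reads expected. The remaining position of the 3, Zc3h13 75576875, had 0.625 and 0.224 in WT and 0.324 at 34 reads in KO replicate 2, inside the WT range.

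The adaptors held 16 of the 32. In Rbm15, position 107233571 on chromosome 3 was read as A in every read of both WT libraries (1.000 and 1.000, 66 and 72 reads), and was in neither KO list with 91.9 and 96.5 reads expected. Another 4 shared Rbm15 positions lay close by, between 107233319 and 107233738. Rbm15b position 106761513 on chromosome 9 had 0.823 and 0.691 at 130 and 272 reads, with 227 and 209 expected in KO, and 106761357 had 0.264 and 0.481 at 174 and 397 reads. Neither KO library listed any of the 10 Rbm15b or the 6 Rbm15 positions. In Cbll1, position 31536980 on chromosome 12 had 0.600 and 0.387 at 40 and 62 reads, with 72.8 and 48.4 expected, and all 4 shared positions of that gene were missing from the KO lists.

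The 16 positions listed in both KO libraries had lower levels, with means of 0.119 to 0.304 and a median of 0.223, and 1 of them reached 0.3. They lay in 5 genes: Cbll1 with 6, Mettl3 with 4, Rbm15b with 3, Rbm15 with 2 and Virma with 1. Of these, 12 were in neither WT list (75.0%, 50.5% to 89.8%), against 74.1% of 9489 such positions in other genes, and with a coverage of at least 20 it was 9 of 13 (69.2%) against 73.0%. The other 4 were all in WT replicate 1. By the same scaling and at the mean KO level, 15 of the 16 were expected to have at least 15 reads and 5 unconverted reads in both WT libraries. Of those 15, 11 were in neither WT list. With a coverage of at least 20 and 50 or more reads expected in each WT library, it was 5 of 8 (62.5%), against 68.0% elsewhere. Positions 31537505 and 31537506 of Cbll1 are neighbouring bases and share reads.

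The highest shared KO level of each gene, with a coverage of at least 20, was modest. Rbm15 107237758 had 0.333 and 0.274 in KO and 1.000 at 19 reads in WT replicate 1. Rbm15b 106759503 had 0.119 and 0.431 in KO, which differ between the replicates, and 0.196 in WT replicate 1. Cbll1 31537915 had 0.333 and 0.161, Mettl3 52537465 had 0.138 and 0.293, and Virma 11534319 had 0.185 and 0.172, all 3 with no WT entry. A better covered KO position was Mettl3 52537743, at 0.131 and 0.127 with 198 and 110 reads, where 138 and 126 reads were expected in WT.

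Distance from the 3′ end of the gene was compared between the shared positions of each genotype. Of the 32 WT positions, 12 (37.5%) were within 1000 bases of the 3′ end, against 31.9% of 23710 shared WT positions in other genes. Of the 16 KO positions, 2 (12.5%) were, against 23.0% elsewhere. Over all listed writer sites the share was 25.1% and 20.1% in WT and 15.7% and 16.7% in KO. These shares rest on few positions and were not tested. Zc3h13 had 4 and 13 sites there in WT and 8 and 9 in KO, which overlap, while Rbm15 had 11 and 11 against 2 and 6. Mettl14 had 6 and 12 against 4 and 4, and Rbm15b had 8 and 8 against 7 and 1. Cbll1 went the other way, with 5 and 1 in WT against 6 and 13 in KO. Mettl3 (5 and 1 against 4 and 5), Wtap (2 and 5 against 4 and 1) and Virma (6 and 4 against 2 and 7) also overlapped. The share over all genes was not counted.

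Mettl3, the targeted gene, was not missing from the KO lists. It held 18 and 15 listed sites in WT and 20 and 21 in KO, and its gene coverage, the authors' value per gene over that of the median gene in the library, came to 1.01 and 0.801 in WT and 1.16 and 1.04 in KO. Both measures were higher in both KO libraries. The lists therefore do not check the knockout by Mettl3 abundance, and the position of the lesion is not given in the sources used here. The gene was divided into 5 equal segments from its start. Segment 1 held 0 and 2 sites in WT and 2 and 1 in KO, and segment 2 held none in any library. Segment 3 held 2 and 4 in WT and 11 and 8 in KO. Segment 4 held 6 and 7 in WT and 1 and 0 in KO, and segment 5 held 10 and 2 against 6 and 12.

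Segment 4, bases 6173 to 8230 from the start, stood out after the values were seen. WT levels there were 0.152 to 0.313 at 16 to 118 reads, and the only KO entry was 52534979 in KO replicate 1, at 0.269 with 26 reads. Median coverage of its listed sites was 46.5 and 57 reads in WT and 26 in KO replicate 1. In each WT library 2 of these sites carried a gene value that spanned the chromosome. In segment 3 the medians were 96 and 45 reads in WT and 170 and 80 in KO. Whether the lesion or transgene reads account for the gap was not tested.

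**Figure D3:**
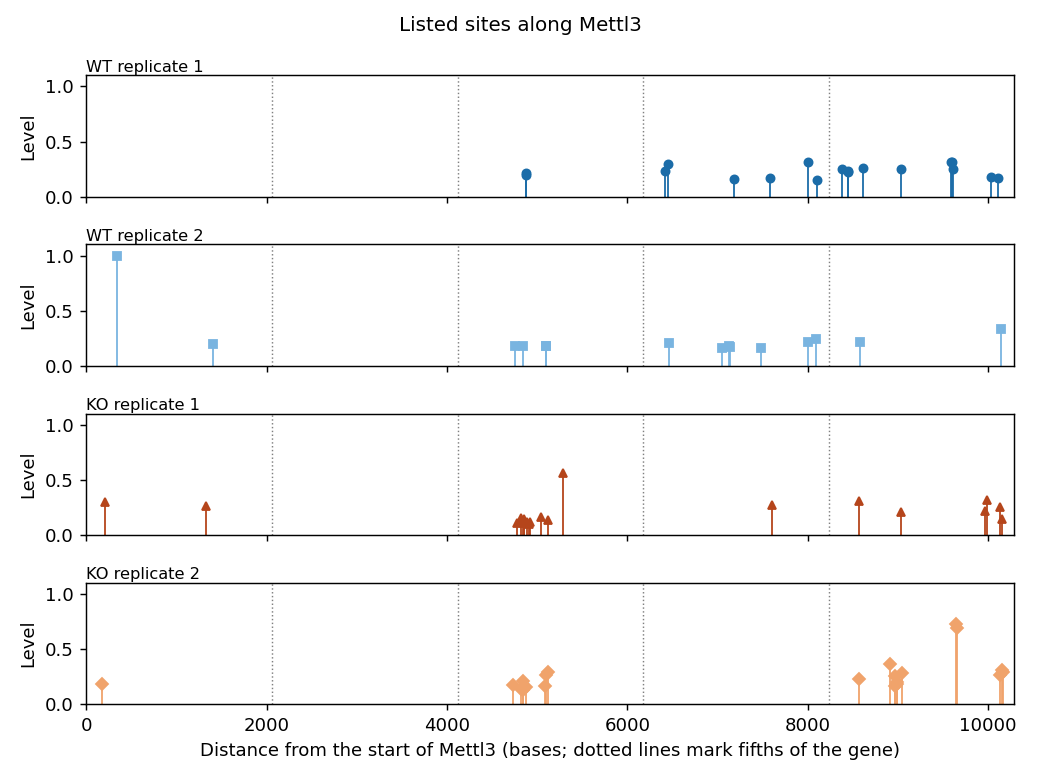
Level of each listed site along Mettl3 (y axis) against its distance in bases from the start of the gene (x axis), 1 panel per library, with dotted lines between 5 equal segments of the gene. Segment 4 holds 6 and 7 sites in WT replicates 1 and 2 and 1 and 0 in KO replicates 1 and 2, and segment 5 holds 10, 2, 6 and 12.

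Counts of listed sites differed in both directions. Both KO libraries had more sites than both WT libraries in 3 of 8 genes, Mettl3, Virma (31 and 47 against 54 and 48) and Rbm15b (42 and 41 against 60 and 45), and in 10.6% of all protein-coding genes with a listed site. Wtap had fewer in both KO libraries (15 and 28 against 13 and 12), as had 24.7% of genes. Mettl14 had 9 and 30 sites in WT and 7 and 15 in KO, Zc3h13 had 12 and 32 against 21 and 16, Rbm15 had 35 and 44 against 29 and 68, and Cbll1 had 25 and 36 against 32 and 51. Those 4 overlapped between the groups.

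Gene coverage, as the authors deposited it, is given here relative to the median gene of the library. Its definition, and whether it is per length, is not given in the sources used here, so each gene is compared between libraries only. In a bulk sample, fewer cells that express a gene and less RNA per cell cannot be told apart. No writer gene passed an adjusted p of 0.05 in a limma fit over 8288 genes with Benjamini-Hochberg adjustment, in which 3.06% of genes were called higher in KO and 3.44% lower. At an unadjusted p under 0.05 there were 2, Wtap and Rbm15. All 8 fitted changes were above 0 and none below, against 47.0% above and 53.0% below over all genes, and their median was 0.29 on the log2 scale against -0.02 over all genes. Without centring, the median of all genes was -0.13, and the fitted changes of Mettl14, Virma and Zc3h13 were then below 0.

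Both KO libraries lay above both WT libraries in 5 of 8 writer genes (24.5% of all genes), in none did both lie below (29.6%), and 3 overlapped. Wtap lay at 1.94 and 1.24 in WT and 2.25 and 3.55 in KO, with a log2 change of 0.86 ± 0.25 (SE, limma adjusted p = 0.056, n = 2 each). Its value in KO replicate 2 was attached to only 2 sites. Without WT replicate 1 the change was 1.18, with a limma adjusted p of 0.000735, and among genes at or above the median coverage the adjusted p was 9.95e-05, so the call depended on these choices. The change was 0.53 without KO replicate 2 (limma adjusted p = 0.353), 0.54 without WT replicate 2 (limma adjusted p = 0.330) and 1.19 without KO replicate 1 (limma adjusted p = 0.0786).

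Rbm15 lay at 0.609 and 0.606 in WT and 0.814 and 0.983 in KO, with a log2 change of 0.56 ± 0.17 (SE, limma adjusted p = 0.0644). Cbll1 lay at 0.832 and 0.919 in WT and 1.28 and 0.978 in KO (0.35 ± 0.17, limma adjusted p = 0.238). Rbm15b lay at 1.08 and 1.27 against 1.38 and 1.47 (0.28 ± 0.16, limma adjusted p = 0.320), and Mettl3 had a change of 0.29 ± 0.17 (limma adjusted p = 0.319). In these 4 genes the groups did not overlap, yet none passed the adjusted threshold. Leaving out 1 library moved the change of Mettl3 between 0.13 (without WT replicate 2) and 0.46 (without WT replicate 1), that of Cbll1 between 0.16 (without KO replicate 1) and 0.55 (without KO replicate 2), and that of Rbm15b between 0.17 (without WT replicate 1) and 0.40 (without WT replicate 2).

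For the other 3, the groups overlapped and the fitted changes were near 0. Mettl14 lay at 0.978 and 0.829 in WT and 0.930 and 0.886 in KO (95% interval of the log2 change -0.34 to 0.36). Virma lay at 0.770 and 0.863 against 0.924 and 0.738 (-0.35 to 0.39), and Zc3h13 at 0.944 and 0.770 against 0.764 and 0.985 (-0.36 to 0.41). These intervals still allow changes of the size seen in Mettl3 or Cbll1.

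**Figure D4:**
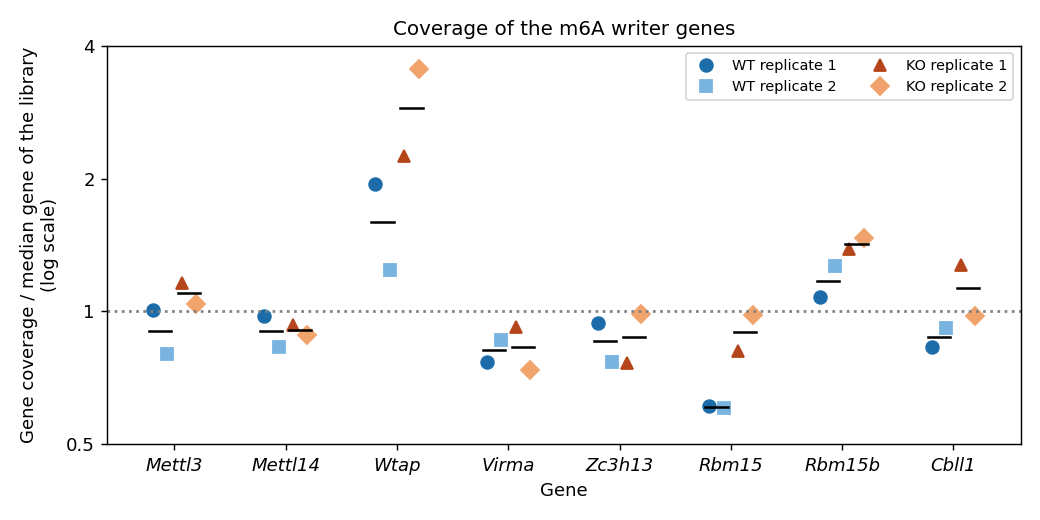
Gene coverage divided by the median gene of the library (log y axis) for the 8 writer genes (x axis), with 1 point per library and bars at the group means. Wtap lies at 1.94 and 1.24 in WT and 2.25 and 3.55 in KO, and Rbm15 at 0.609 and 0.606 against 0.814 and 0.983, while Mettl14, Virma and Zc3h13 overlap, and none of the 8 passed the adjusted threshold.

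The genes most like Mettl3 in centred log2 coverage over the 4 libraries were Nub1, at a Euclidean distance of 0.0539, Eid2 at 0.0960 and Cwf19l2 at 0.131. None of the other writer genes was among these 3. Nub1 lay at 1.00 and 0.812 in WT and 1.12 and 1.03 in KO.

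The unconverted share of a gene is 100 minus the authors' conversion rate in percent. Which positions enter that rate is not given in the sources used here. The share does not separate m6A from unmodified adenosine left unconverted. It was examined after the site values had been seen. The median gene lay at 3.90% and 3.82% in WT and 2.83% and 3.36% in KO. In 4 of 8 writer genes both KO libraries lay below both WT libraries, as in 50.1% of all genes, and in none did both lie above, against 3.69% of genes. Those 4 were Rbm15b, Zc3h13, Virma and Cbll1. After subtraction of each library's median, the count below was again 4 of 8, against 23.8% of genes, and the count above was 0, against 28.8%.

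Rbm15b had 5.995% and 6.094% in WT and 3.42% and 3.86% in KO (means 6.04 ± 0.0700 and 3.64 ± 0.312, SD, n = 2 each). Zc3h13 had 5.93% and 4.17% in WT and 2.78% and 2.49% in KO. Virma had 5.21% and 4.44% against 3.03% and 3.82%, and Cbll1 had 4.54% and 4.20% against 2.95% and 3.31%. In all 4 the groups stood apart. The others overlapped: Mettl3 at 3.56% and 5.24% against 3.95% and 3.54%, Mettl14 at 5.47% and 3.19% against 5.05% and 4.88%, Wtap at 2.57% and 2.99% against 2.94% and 1.80%, and Rbm15 at 3.45% and 2.93% against 3.58% and 2.87%.

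On the log2 odds scale, centred on the library median, limma with Benjamini-Hochberg adjustment called 0 of 8288 genes, and 0 of the 8 writer genes had an unadjusted p under 0.05. The fitted change was below 0 in 4 of the 8, against 46.2% of genes. Zc3h13 had a centred change of -0.62 ± 0.26 (SE, limma adjusted p = 0.397) and Rbm15b of -0.44 ± 0.17 (limma adjusted p = 0.388). Leaving out 1 library moved the Zc3h13 value between -0.87 (without WT replicate 2) and -0.37 (without WT replicate 1), and it was -0.41 without KO replicate 2. In data simulated with the spreads shuffled among genes, the same fit recovered 0 of 200 genes changed by 1 or 2 on that scale. Because of the shuffling, this does not show what the fit could call for the writer genes. The lack of calls is therefore not read as a lack of change.

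**Figure D5:**
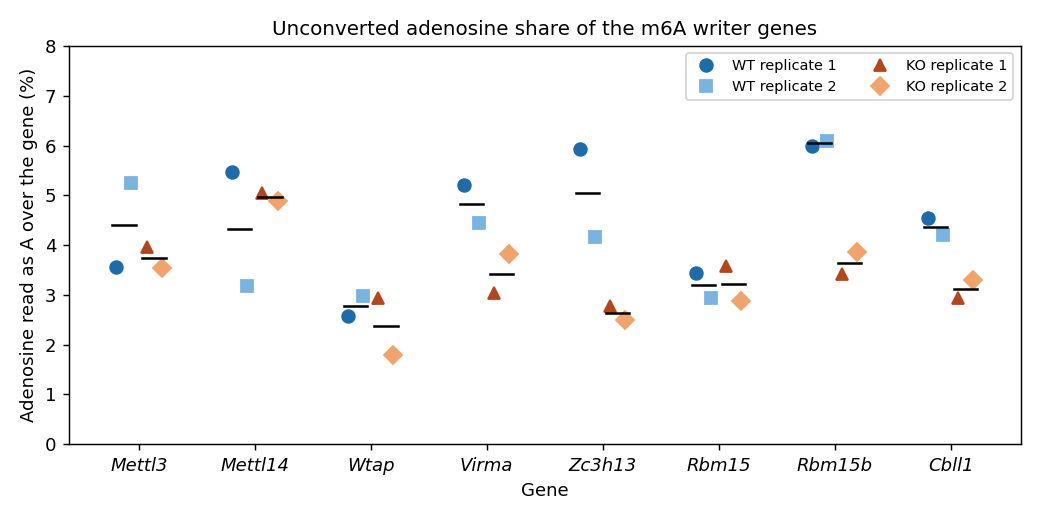
Percent of adenosine read as A over each writer gene (y axis), with 1 point per library and bars at the group means. Rbm15b (5.995% and 6.094% in WT, 3.42% and 3.86% in KO), Zc3h13, Virma and Cbll1 have both KO points below both WT points, and Mettl3, Mettl14, Wtap and Rbm15 overlap.

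Among 17 other genes of RNA m6A (readers, erasers and further methyltransferases), 16 had a coverage value in every library, with Igf2bp3 the exception. Of these, 9 had a fitted change above 0 and 7 below, with a median log2 change of 0.19. By limma adjusted p, 3 were called higher in KO and 0 lower, against 3.06% and 3.44% of all genes. At an unadjusted p under 0.05 there were 6, of which Igf2bp2 (-0.63) and Mat2a (-0.62) had changes below 0; these 2 were named after their values were seen. The 3 are YTH readers, proteins that bind m6A. Ythdc1, the nuclear reader, rose from 1.69 and 1.65 to 2.56 and 3.04 times the median gene (log2 change 0.74 ± 0.17, limma adjusted p = 0.0256). Ythdf1 rose from 2.19 and 2.37 to 4.23 and 3.38 (0.73 ± 0.18, limma adjusted p = 0.0342), and Ythdf2, a reader tied to mRNA decay, from 0.898 and 0.857 to 1.35 and 1.42 (0.66 ± 0.15, limma adjusted p = 0.0271). None of the 3 calls held when any 1 of the 4 libraries was left out (limma adjusted p of 0.0540 to 0.147), nor without centring, with changes of 0.57 to 0.89 in those leave-one-out fits. Among genes at or above the median coverage, 2 of the list were also called lower. The writer genes had a median change of 0.29 and no such call, and the difference between the lists was not tested.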

How the data were processed

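GLORI libraries of poly(A) RNA from day 4 organoids (2 WT, 2 Mettl3 KO, 1 batch label for all 4) were analysed from the authors' site lists, 1 per library and none pooled. A site's deposited columns are, per the file headers, the count of A plus G reads, the count of A reads, the fraction of A (the level), a p-value, and the coverage signal and conversion percent of its gene as deposited by the authors. How gene coverage and the p-value were computed, the aligner and molecular identifier steps are not given in the sources used here. The lowest deposited gene coverage was 15 in each library, and the lists held no lower value. Genes without a value in every library were left out of the fits, such as Rax, with none in KO, and Lmx1a, with none in WT. Per the submitters' processing notes the build is mm10.

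The writer genes and all lists were chosen with earlier results of these data known. Repeated positions (28 to 53 per list) were collapsed. Values that spanned a chromosome (18.4% to 24.3% of sites) and genes with several values were left out of gene coverage. Sites with such values stayed in the site counts, and their share was uneven between libraries. It was 48.6% and 59.1% of Rbm15 sites in WT and 0% and 44.1% in KO. Of Wtap sites it was 46.7% and 53.6% against 38.5% and 83.3%. Log2 coverage, with nothing added, and log2 odds of the unconverted share were centred on the library median and fitted with limma 3.58.1 (R 4.3.3; 8288 genes with a value in all 4 lists, Benjamini-Hochberg). Other values used Python 3.11.15 and SciPy 1.17.1, with Wilson 95% intervals and exact permutation tests. Expected coverage is a site's coverage in one genotype scaled by the ratio of its gene's coverage. Both fits were run on simulated data of 8288 genes, with the spreads shuffled among genes. The coverage fit recovered 27 of 100 genes changed by 1 and 84 of 100 changed by 2 on the log2 scale, with 2 false calls. The unconverted fit recovered 0 of 200.

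All 8 genes are named. Named sites are each gene's highest mean level among positions shared by both libraries of a genotype with a coverage of at least 20; others were picked after their values were seen. Named m6A genes are those past the threshold, up to 5, and the genes most like Mettl3 are the 3 nearest in coverage. Counts of sites listed in all 4 libraries would have been tested, but no writer site was. Alternatives were centring, quantile normalization, an added 1, a coverage filter, another reading of gene values, coverage and level minimums, depth scaling, site placement, a replicate block and leaving out each library.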

Additional observations from a re-analysis of the deposited data

How the results depend on the processing

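The count of writer genes called higher in coverage was 0, and 1 (Wtap) among genes at or above the median coverage, with a range of 0 to 1 when 1 library was left out; none was called lower in any of these. Fitted coverage changes near 0 turned sign: without centring they were -0.0972 for Mettl14, -0.0901 for Virma and -0.0827 for Zc3h13, and with quantile normalization -0.0008 for Mettl14 and -0.0039 for Virma. Leaving out 1 library gave -0.1084 to 0.1313 for Mettl14, -0.1436 to 0.1806 for Virma and -0.1576 to 0.2094 for Zc3h13. The other 5 genes kept their sign, at 0.53 to 1.19 for Wtap, 0.42 to 0.70 for Rbm15, 0.16 to 0.55 for Cbll1, 0.13 to 0.46 for Mettl3 and 0.17 to 0.40 for Rbm15b. The unconverted change without centring was -0.217 for Mettl3 and -0.2737 for Wtap, and leaving out 1 library gave -0.1915 to 0.4223 and -0.4332 to 0.5506. The share of shared WT positions in neither KO list was 100% at a coverage of at least 100, over 4 positions. Of the 28 with a coverage of at least 20, it was 89.3% without KO replicate 1 and 100% without KO replicate 2. With a WT list left out, the base was every site of the other WT list at that coverage, not shared positions. It was then 90.2% of 235 without WT replicate 1 and 85.9% of 156 without WT replicate 2. The KO over WT ratio of all listed writer sites was 0.843 divided by summed gene coverage, and 0.938 to 1.37 without 1 library. The cause of these changes was not tested.

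Genes called over all 8288 numbered 254 higher and 285 lower, and 74 and 202 without centring, 339 and 456 among 4144 genes at or above the median coverage, and 37 to 280 and 42 to 224 without 1 library. The replicate numbers are shared but do not show pairing: deviations of same-numbered libraries had a correlation of -0.0266 over genes for coverage and 0.00559 for the unconverted share. With the replicate block the calls were 238 and 248, and 0 for the writer genes in coverage and 0 in unconverted share. The tests planned at sites listed in all 4 libraries, with their alternatives, were not run because no writer site was in all 4. Depth limits levels at thinly covered sites, since 16 reads give wide intervals.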
